A study of Bos grunniens with 36 samples.

Results

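Neutrophils and the epithelium of the udder both carry antimicrobial proteins, and 8 of their genes were followed here through 1 lactation of the yak: 4 cathelicidins (CATHL1, CATHL2, CATHL3 and CATHL4), the peptidoglycan recognition protein PGLYRP1, and the 3 calgranulins S100A8, S100A9 and S100A12. A gene was taken up if a probe of that name stood in the authors' table of normalised values, and its brightest probe (highest mean over the 36 columns) stood for it. This left 6 of the 8 genes among the 20110 genes and unnamed transcripts of the table, since no probe named CATHL1 or CATHL3 was in it. The 8 genes were named by 17 probes on the array, 11 of them in the table.

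Cathelicidins are made as precursors and stored in neutrophil granules in cattle, and their cleaved ends kill bacteria by damaging the membrane. PGLYRP1 binds peptidoglycan of the bacterial cell wall. S100A8 and S100A9 form the calcium-binding heterodimer calprotectin, which is abundant in neutrophil cytosol and withholds metal ions from microbes, and with S100A12 it can signal through TLR4 and the receptor AGER. Neutrophils enter milk in large numbers during udder infection, and mammary epithelial cells can also make calgranulins.

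Biopsies of mammary parenchyma from 4 female yaks (Bos grunniens) were taken at 9 times around calving, on days -30 and -15 before it and on days +1, +15, +30, +60, +120, +180 and +240 after it. Every group held the same 4 animals and differed from the others by day, with no treatment named in the labels and no age or udder health given. The left and right rear glands were sampled in turn, and no array's side is recorded. Total RNA labelled with the dye Cy3 was hybridised to 36 single-colour arrays of a cattle design, so that a level also depends on how well a cattle probe pairs with the yak transcript.

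Levels below are log2 values relative to the 75th percentile of the array, which is 0, and differences are on that log2 scale unless a fold is named. They were tested with limma (day as fixed effect, animal as random block), with the Benjamini-Hochberg adjustment over all 20110 features in each comparison and a threshold of 0.05. The days are those of the sample titles of the table. Each table column equalled 1 scanner file less a constant, but for 0 of the 36 columns was that file deposited under the same sample, and 27 of them had another day in the scanner record. The files do not state which record is right. Results under both are given for the calls of CATHL2, CATHL4, PGLYRP1 and the calgranulins. Day differences of all other named genes, correlations within days and the figures use the table's record alone, and were not tested under the scanner record. Every file was displaced by the same number of places in the sample order. The scanner record thereby put arrays of more than 1 day on each slide, and gave day +240 to the day -30 arrays of animals 1, 2 and 3. Under the table's record all 4 arrays of each of the 9 days lay on 1 slide, so that day and slide cannot be told apart. Array brightness, taken as the 75th percentile, was 4844 to 5750 at day -30 and 1026 to 2109 at day +15. Animal 4 at days +120 and +180 had mean levels of the milk protein list of -1.28 and -1.21, against 2.37 or more on every other array. In tissue samples of this kind, more cells of a type and more RNA per cell cannot be told apart.

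The probes decide which transcript each value measures, so 5 of the probes are shown, 5′ to 3′ with the letters of the array files and with positions on the cattle assembly UMD 3.1. S100A9 and S100A12 are related genes, and capitals mark the bases that the probes share in their best ungapped alignment.
S100A9: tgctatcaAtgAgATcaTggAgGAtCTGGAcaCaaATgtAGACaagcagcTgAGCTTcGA
S100A12: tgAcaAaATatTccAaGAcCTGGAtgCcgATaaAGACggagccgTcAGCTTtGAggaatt
The probes were identical at 28 of 54 aligned bases (51.9%). The S100A9 probe lies at chr3:17176551-17176610 on the minus strand and the S100A12 probe at chr3:17165036-17165095 on the plus strand, both in the coding sequence of the calcium-binding EF-hand region. The S100A8 probe, at chr3:17147825-17147884 on the plus strand, contains the polyadenylation signal AATAAA from its base 55. The 3 probes lie within 28.8 kb, in the order S100A8, S100A12, S100A9.

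Both table probes of CATHL2 read the coding sequence on the minus strand of chromosome 22, and each covers more of the genome than its own length, as across an intron. The first stood for the gene. The array annotation lists it for the transcripts of both CATHL2 and CATHL3, so that its values may come from either, and the second is listed for CATHL2 alone.
CATHL2, listed for both genes: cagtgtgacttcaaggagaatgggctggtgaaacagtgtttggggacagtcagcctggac
CATHL2, listed for 1 gene: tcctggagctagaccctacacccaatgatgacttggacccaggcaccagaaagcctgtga
The first runs from chr22:52190452-52190655 and the second from chr22:52190709-52190881, spans of 204 and 173 bases for probes of 60. The PGLYRP1 probe (chr18:53946172-53946231, minus strand) covers the end of the coding sequence, and is shown up to the stop codon, in capitals, which is bases 46 to 48 of the 60 of the probe.
PGLYRP1: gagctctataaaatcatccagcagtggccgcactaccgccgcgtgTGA
The CATHL4 probe lies at chrUn_GJ059556:10361-10420, on a scaffold not placed on a chromosome. All 6 probes were well above background on all 4 arrays of every day, except that of CATHL4, which was so on 3 of 4 arrays at days +60, +120, +180 and +240.

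The 6 genes did not move as 1 group. PGLYRP1 fell at calving and stayed lower through day +240, S100A8 and S100A12 were higher at days +15, +30, +60 and +180, CATHL2 was higher at days +15 and +60, and CATHL4 and S100A9 were higher at day +30, all against day -30. Counted by comparison with day -30, 0 of the 6 genes were called at day -15, where 0.00497% of all features were called and the lowest unadjusted p of the 6 was 0.304. At day +1 the count was 1 (6.24% of features), at day +15 it was 4 (17.9%), at day +30 it was 5 (6.37%) and at day +60 it was 4 (29.3%). At day +120 it was 1 (3.76%), at day +180 it was 3 (17.4%) and at day +240 it was 1 (13.9%). The median difference of the 6 genes at day +30 was 3.18, beside -0.05 over all features. Day +30 against day -15 had 5 of 6 called (3.58% of features): PGLYRP1 lower by 2.19, and CATHL2, CATHL4, S100A8 and S100A12 higher by 2.06, 2.71, 4.00 and 2.93. Over all 36 pairs of days 34 of 216 comparisons passed (7.41% over all features). In the order of day means, no pair of neighbouring days passed the test, except days -15 and +120 for PGLYRP1 (1.52, limma adjusted p = 0.0213). Such neighbours are picked for small differences, so that lack of calls says little about whether the days differ.

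PGLYRP1 was the 1 gene of the 6 called lower than day -30, and the drop lay between day -15 and day +1. At day -30 its levels were 1.32, 0.76, 1.22 and 0.67 in animals 1 to 4, and at day -15 they were 0.58, 0.89, 0.61 and 0.46. At day +1 they were -2.10, -2.32, -1.62 and -2.02. Every array before calving, at 0.46 or higher, lay above every array after it, at -0.13 or lower. The level fell by 2.65 ± 0.39 (SE, n = 4 animals, 6.29-fold) from day -15 to day +1 (limma adjusted p = 0.000275). That was the only call for these genes among the 8 comparisons of successive days, and 1.79% of all features were called in it. In the successive comparisons from day +1 on, 0.318%, 0.0149%, 0.88%, 0.895%, 0.338% and 0.801% of all features were called, and 0 of the 6 genes. Of the 48 comparisons of a gene between successive days 5 had an unadjusted p under 0.05.

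Against day -30, PGLYRP1 was lower in all 4 animals at each of the 7 days after calving. The difference was -3.01 at day +1 (limma adjusted p = 5.58e-05), -2.38 at day +15, -2.54 at day +30 and -2.69 at day +60 (1.70e-05). It was -1.88 at day +120 (0.00382), -2.12 at day +180 and -1.95 at day +240, each with an SE of 0.39. The 2 days before calving differed by -0.35 (adjusted p = 1). From day +120 on, the mean level stood between -1.13 and -0.89, above the -2.02 of day +1. Against day +1 the differences at days +120, +180 and +240 were 1.13, 0.89 and 1.06. They did not pass (limma adjusted p = 0.0988, 0.107 and 0.0771), with all 4 animals higher each time. No pair of successive days after calving passed the test. The animals also lay further apart late in lactation, with an SD of 0.93 at day +180 against 0.18 at day -15. At day +180 the levels were -1.52, -2.23, -0.57 and -0.19. Animal 4 was the highest at days +120 (-0.20) and +180, on the 2 arrays low in milk protein RNA. Without these 2 arrays the differences from day -30 were -2.15 at day +120 and -2.48 at day +180. A second probe of the gene, A_73_P430106, followed the first (Pearson r = 0.97 over 36 arrays) and had a difference of -2.62 at day +30.

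In the scanner record the PGLYRP1 differences from day -30 were again all below 0, but 3 of the 7 calls against day -30 were lost and the order of days changed. The difference was then -2.04 at day +1 (limma adjusted p = 0.0569), -1.26 at day +180 (0.144) and -0.29 at day +240 (1). The day +1 to day -15 difference became 0.0464 (adjusted p = 0.979), where day -15 stood at -2.08 against day -30 (0.359). The calls at days +15, +30, +60 and +120 remained, with -2.22, -2.59, -1.87 and -1.82 (limma adjusted p = 0.0401, 0.00257, 0.0328 and 0.0313).

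**Figure D1:**
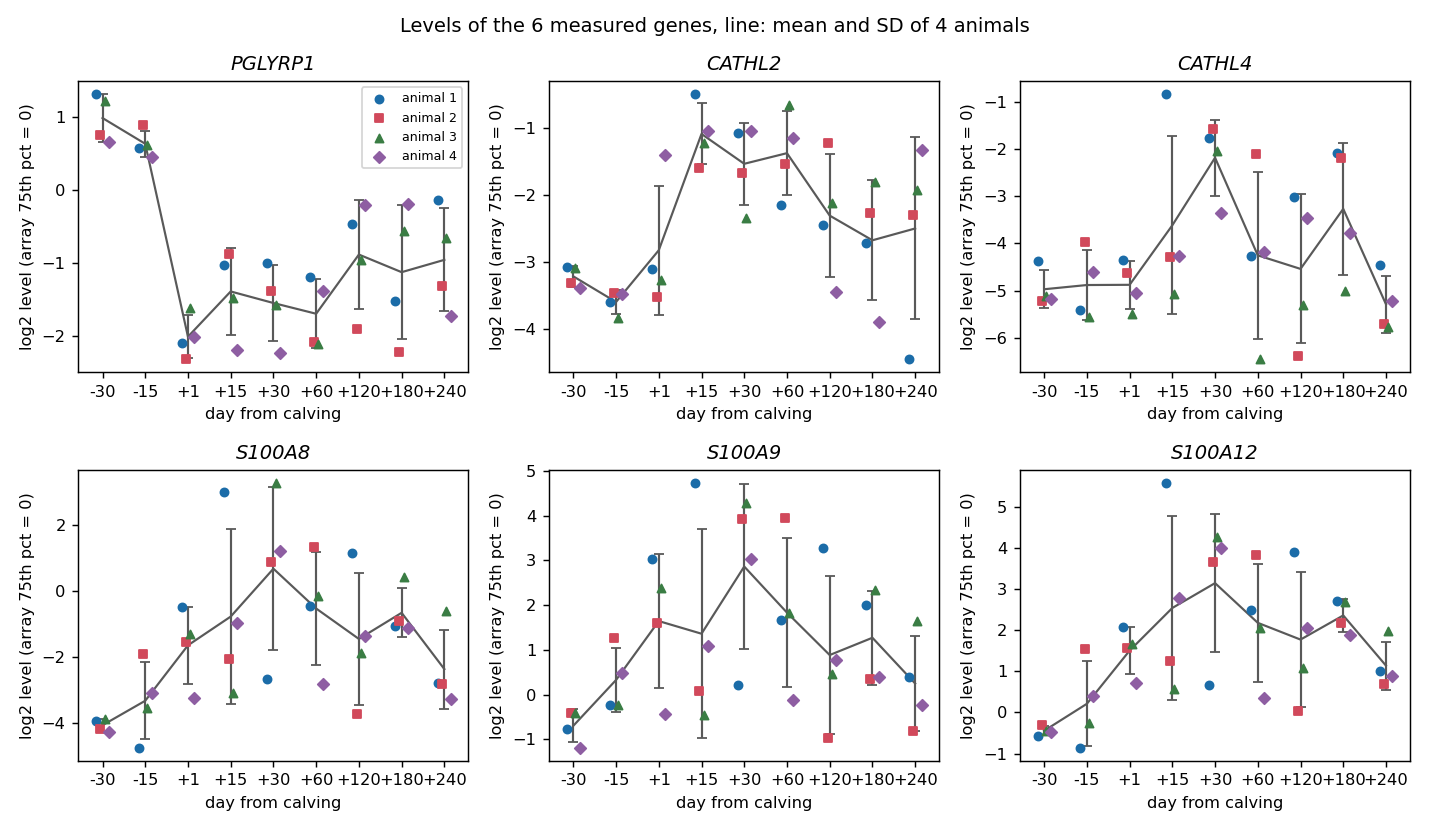
Levels of the 6 genes (log2, 75th percentile of the array at 0) by day from calving, with a coloured symbol for each of the 4 animals and a line through the day means with the SD as bars. PGLYRP1 falls from 0.64 to -2.02 between days -15 and +1, while the calgranulins have their highest mean at day +30 with animals several log2 units apart.

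S100A8 was called higher than at day -30 on 4 of the 7 days after calving. At day -30 its levels were -3.96, -4.19, -3.89 and -4.29 in animals 1 to 4, the closest agreement of any day (SD 0.19). At day +30 they were -2.68, 0.88, 3.27 and 1.19, all above the day -30 levels although 5.94 apart. The difference of 4.75 ± 1.11 (SE, 26.9-fold) passed the test (limma adjusted p = 0.0112). S100A8 was also higher at day +15 by 3.30 (adjusted p = 0.0377), at day +60 by 3.54 (0.0181) and at day +180 by 3.41 (0.0317). The day +15 call was the least stable of these, lost under 8 of 15 alternatives, and that of day +180 was lost under 6. At day +1 it differed by 2.42 (0.197), at day +120 by 2.62 (0.186) and at day +240 by 1.70 (0.302). Its levels did not overlap with those of day -30 at any of the 7 days after calving. The share of all features whose ranges lay apart was not counted, here or for the other genes. At day -15, S100A9 and CATHL2 did not overlap with day -30 either, with limma unadjusted p of 0.304 and 0.473.

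S100A12, a calgranulin found in cattle and humans but lacking in mice, followed the same days. Its levels were -0.57, -0.31, -0.44 and -0.47 at day -30 and 0.66, 3.65, 4.26 and 4.00 at day +30. The difference was 3.59 ± 0.85 at day +30 (limma adjusted p = 0.0119), 2.98 at day +15 (0.0181), 2.62 at day +60 (0.0216) and 2.80 at day +180 (0.0215). At days +1, +120 and +240 it was 1.95, 2.22 and 1.58, with adjusted p from 0.14 to 0.203. The ranges of day -30 and each day after calving were again apart, with the same limit. Its 2 other probes followed it over the 36 arrays (Pearson r = 1.00 each) and gave differences of 3.82 and 3.61 at day +30.

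S100A9, the partner of S100A8 in calprotectin, passed at 1 day only. Its levels were -0.78, -0.42, -0.41 and -1.19 at day -30 and 0.21, 3.93, 4.28 and 3.02 at day +30, a difference of 3.56 ± 0.98 (limma adjusted p = 0.0277). At day +60 the difference was 2.53 (0.0506) and at day +1 it was 2.34 (0.154). At days +15, +120, +180 and +240 it was 2.06, 1.58, 1.97 and 0.95. In the F test over all 9 days S100A9 had an adjusted p of 0.0956, whereas the other 5 genes passed: PGLYRP1 at 6.37e-06, CATHL2 at 0.00323, S100A12 at 0.0166, S100A8 at 0.0181 and CATHL4 at 0.0213. Of all features 42.3% passed that test. With the mean of all probes of a gene all 6 genes passed it, S100A9 included. A second S100A9 probe, A_73_P203337, lies on the other strand and had an r of 0.53 with the first over the 36 arrays. It was well above background on 26 arrays and showed a day +30 difference of 2.70. That S100A9 differed from S100A8 or S100A12 in its course was not tested.

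**Figure D2:**
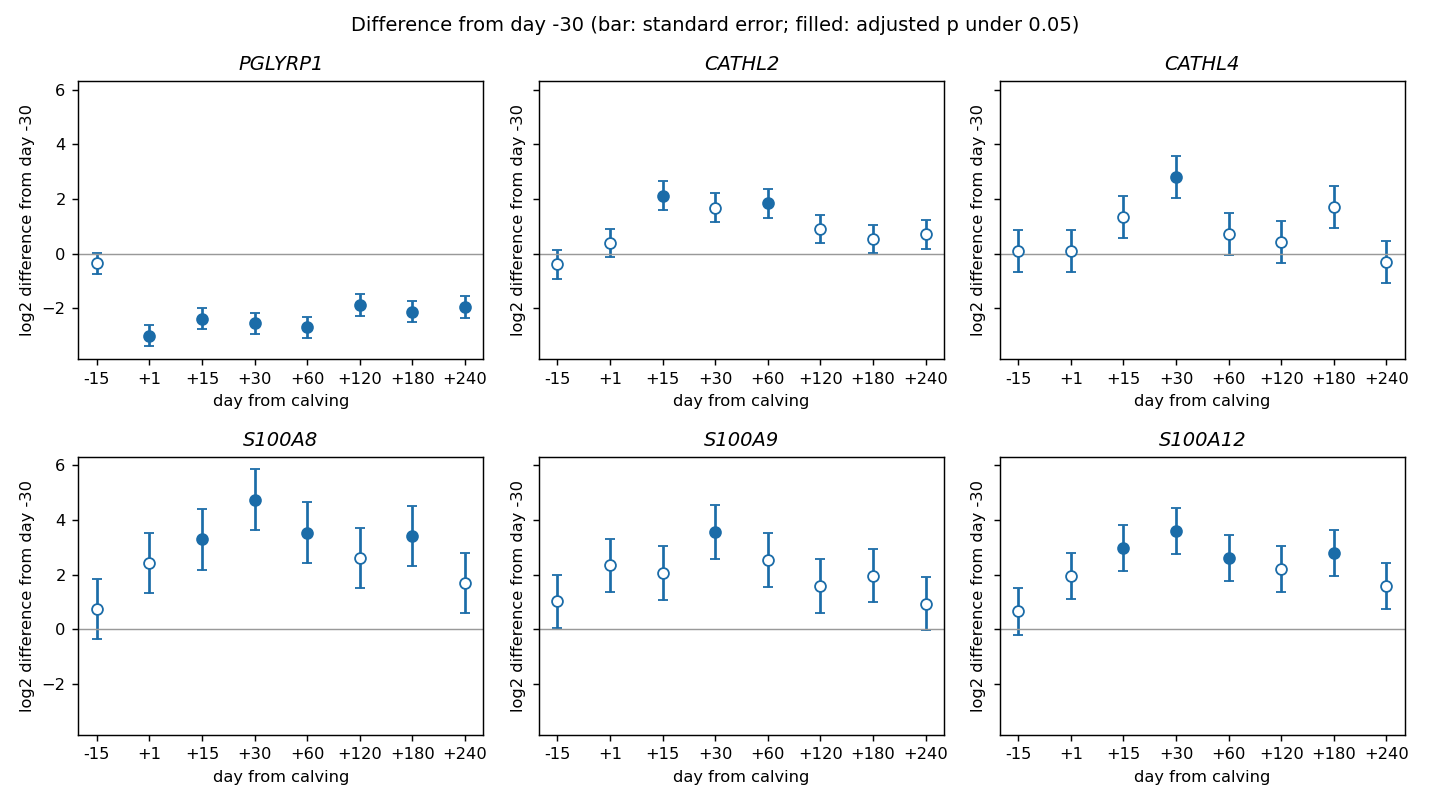
Difference of each day from day -30 (log2, limma) for the 6 genes, with the standard error as bar and filled symbols where the adjusted p was under 0.05. PGLYRP1 is filled at all 7 days after calving and lies below 0, S100A8 and S100A12 are filled at days +15, +30, +60 and +180 and lie above it.

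The calgranulin calls depended on the animals. The spread between animals was 0.11 to 0.37 (SD) at day -30 and 2.23 to 2.66 at day +15, whereas the test used 1 SE per gene for every day. At day +15 animal 1 stood at 2.98 for S100A8, 4.73 for S100A9 and 5.57 for S100A12, while animal 3 stood at -3.096, -0.46 and 0.56. At day +30 animal 1 was the lowest in all 3 genes and animal 3 the highest. At day +60 animal 2 was the highest and animal 4 the lowest, and at day +120 animal 1 was the highest and animal 2 the lowest. The same animal was the highest in all 3 genes on 7 of 9 days and the lowest on 5 of 9. Of the 9 calgranulin calls against day -30, 7 were kept without animal 1, 1 without animal 2, 0 without animal 3 and 2 without animal 4. All of their differences kept their sign. Without animal 1, the day +15 differences dropped to 2.08 for S100A8 (limma adjusted p = 0.149) and 1.93 for S100A12 (0.0798), and both calls were lost. The S100A8 difference at day +30 was 5.90 without animal 1 (limma adjusted p = 0.0016) and 3.95 without animal 3 (0.153). Over all features the calls at day +30 also fell, from 1282 with the 4 animals to 530, 504, 110 and 337 without animals 1, 2, 3 and 4. In the scanner record the calls of S100A8, S100A9 and S100A12 at day +30 were kept (4.11, 2.71 and 3.102, adjusted p = 0.013, 0.0466 and 0.0135), and the other 6 were not.

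Across the 36 arrays S100A8 and S100A12 had a Pearson r of 0.97, S100A8 and S100A9 of 0.93, and S100A9 and S100A12 of 0.91. After the day means were taken out the values were 0.96, 0.94 and 0.94, so that the genes varied together between animals of the same day. The arrays share animals, slides and scaling, and these values are descriptions. PGLYRP1 and S100A8 had an r of -0.48 over all arrays and of 0.12 within days.

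**Figure D3:**
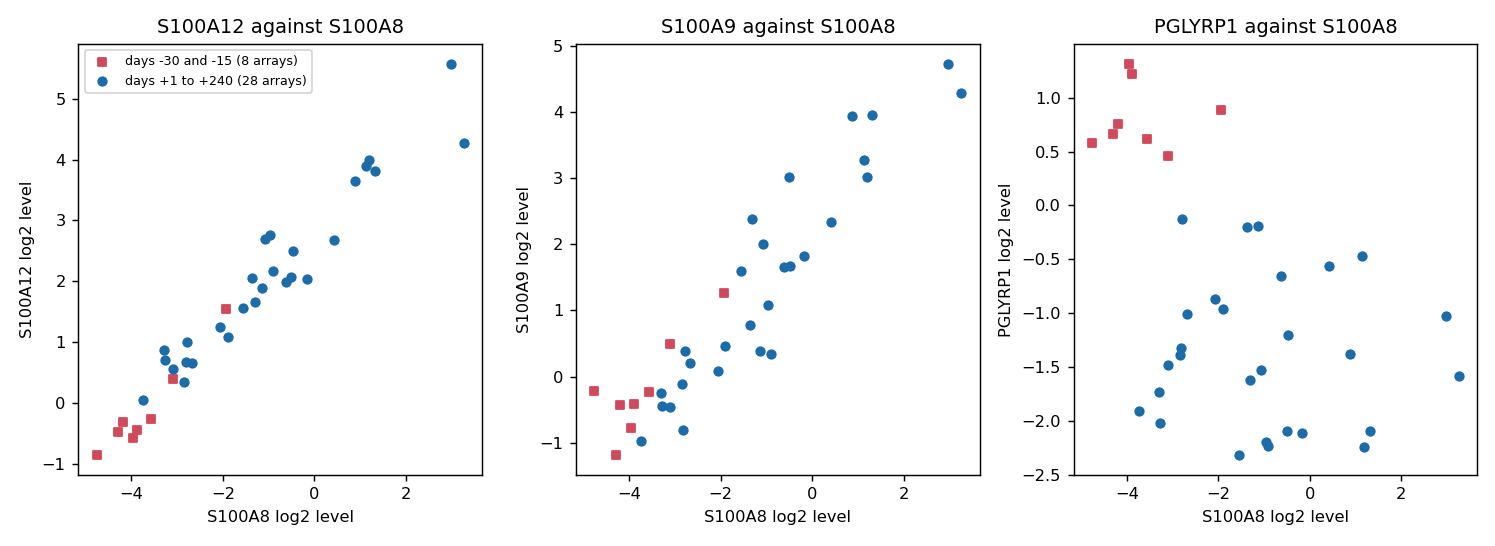
Levels (log2) of S100A12, S100A9 and PGLYRP1 against S100A8 on the 36 arrays, with squares for days -30 and -15 and circles for the days after calving. The first 2 panels show narrow diagonals (r = 0.97 and 0.93), and in the PGLYRP1 panel the squares all lie above the circles.

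CATHL2, whose peptide is also called Bac5, was higher at days +15 and +60. Its levels were -3.07, -3.32, -3.08 and -3.38 at day -30 and -0.50, -1.59, -1.22 and -1.05 at day +15. The difference of 2.12 ± 0.53 (SE, 4.36-fold) passed (limma adjusted p = 0.00875), as did that of 1.84 at day +60 (0.0107). With the mean of all probes of the gene the day +60 difference was 1.14 (0.0653) and no longer passed. At day +30 it was 1.68 (0.051), with all 4 animals above their day -30 level. By day +180 the mean had fallen by 1.59 from day +15 (adjusted p = 0.0312, with 22.1% of all features called). The levels were then -2.72, -2.27, -1.80 and -3.90, and the difference from day -30 was 0.54 (0.506). Animal 4 at that day was 1 of the arrays low in milk protein RNA, and without both such arrays the difference from day -30 was 1.01 (0.133). At day +240 the animals ran from -4.44 to -1.32.

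The CATHL2 probe listed for CATHL2 alone had an r of 0.81 with it over the 36 arrays. It was well above background on 28 of 36 arrays and its mean level was -5.44 at day -30, -4.40 at day +15, -5.04 at day +30 and -4.99 at day +60. Its highest day mean was likewise at day +15 and its lowest at day -15. Another probe of the gene, A_73_P423416, stood outside the table, was well above background on 13 arrays and did not follow the first (r = -0.07). Its mean was -6.48 at day -30, -6.47 at day +15 and -7.21 at day +60. With array brightness as a covariate, the CATHL2 difference at day +15 became 0.41 (limma adjusted p = 0.57), and neither of its calls was kept. Brightness at days +15 (1026 to 2109) and +60 (1274 to 2510) did not overlap with that of day -30 (4844 to 5750). Brightness and day are therefore poorly separated in these comparisons. In the scanner record both were kept, at 2.04 for day +15 (0.0308) and 1.84 for day +60 (0.0162), and days +1 (2.40, 0.0169) and +30 (2.23, 0.00262) were called as well.

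CATHL4, the gene of indolicidin, a tryptophan-rich peptide of cattle neutrophils, had its highest mean at day +30. Its levels were -4.37, -5.22, -5.12 and -5.18 at day -30 and -1.75, -1.58, -2.03 and -3.35 at day +30. All 4 animals were higher (difference 2.80 ± 0.77, limma adjusted p = 0.0276). By day +240 the level had fallen by 3.11 (adjusted p = 0.043, 1.05% of all features), to -4.46, -5.71, -5.78 and -5.22. At the other days it differed from day -30 by -0.32 to 1.71, with no call. With normexp background correction the day +60 difference was 2.05 and passed (0.0104), against 0.72, and with array brightness as a covariate that of day +180 was 2.47 (0.0187). The day +30 call was lost when any 1 animal was left out, with differences from 2.51 to 3.12 and limma adjusted p from 0.0672 to 0.144. Over all features the day +30 calls then fell from 1282 to between 110 and 530. In the scanner record the day +30 difference of CATHL4 was 0.98 (0.407), and its largest difference, 2.63, was at day +15 (0.108).

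CATHL4 had an r of 0.61 to 0.68 with the calgranulins over the 36 arrays. Animal 1 at day +15 was the highest of its day in CATHL4 (-0.83) as in the 3 calgranulins, and animal 2 was so at day +60 (-2.11). At day +30 this was not so, where animal 1 was the lowest in the calgranulins and second highest in CATHL4. CATHL2 and CATHL4 had an r of 0.18 over all arrays and of -0.24 within days.

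The genes whose levels ran most like each member were found by Pearson r over the 36 arrays, the members themselves left out. For S100A8 and S100A12 the first 3 were SDS, which encodes serine dehydratase (r = 0.92 and 0.91), CSF3R, the granulocyte colony-stimulating factor receptor (0.89 and 0.88), and LOC786770 (0.88 and 0.86). The same 3 led for S100A9, at 0.86, 0.80 and 0.83. SDS was 3.96 higher at day +30 than at day -30 (limma adjusted p = 0.0129), and CSF3R differed by 3.21 (0.0532). For CATHL4 they were RASGRP4 (0.74), KCNK17 (0.71) and OSCAR (0.69), none of which passed the F test. CATHL2 ran most like BDH1, a ketone body dehydrogenase (0.90), MYBPC1 (0.90) and GNPNAT1, an enzyme of amino sugar synthesis (0.89), and BDH1 was 4.68 higher at day +30 (0.0326). PGLYRP1 ran most like DNMT1, the maintenance DNA methyltransferase (0.89), NCAPD2, a condensin subunit (0.87), and ZNF296 (0.86). These fell at day +30, by 1.18, 1.37 and 2.07 (limma adjusted p = 0.00305, 0.000228 and 0.000165).

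Of the genes that draw neutrophils some were higher after calving and some lower. Of 10 measured chemoattractant genes 5 passed the F test (42.3% of all features did), among them CXCL3, GRO1, CXCL2 and IL8, which encode chemokines for the receptor CXCR2. CXCL3 was higher at all 7 days after calving, from 3.51 at day +120 to 4.74 at day +30 (limma adjusted p from 0.000128 to 0.00651). GRO1 was higher at 6 of them (4.16 at day +30, adjusted p = 0.000733) and CXCL2 at 6 (4.98 at day +30, 0.00234). GRO1 was dim before calving, well above background on 3 of 4 arrays at day -30 (mean -6.62) and 2 of 4 at day -15. IL8 was higher at days +15 (1.42, 0.0323) and +30 (2.01, 0.0102), and lay within 0.27 of day -30 from day +60 on. TNF, C5 and C3 were named after their values were seen. TNF fell at day +60, by 2.05 (0.00818). C5 differed by -0.53 at day +1 (0.0429) and by -0.50 at day +60 (0.0209). C3, which passed the F test, was higher at days +180 (1.74, 0.00376) and +240 (1.76, 0.00618).

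Among the genes through which calgranulins signal, 8 of 12 passed the F test (42.3% of all features did). CD14, the lipopolysaccharide co-receptor, was higher at all 7 days after calving, from 2.37 at day +120 to 3.79 at day +60 (limma adjusted p = 9.95e-06). LY96, the partner of TLR4, was higher at 4 days (1.97 at day +60, 0.00164), the adaptor MYD88 at 4 (0.85 at day +180, 0.00488) and the kinase IRAK4 at day +1 (0.85, 0.00799). TLR4 itself, also named after its values were seen, was higher at day +1 (0.95, 0.00498). NFKB1 and AGER were likewise named after their values were seen. NFKB1 passed the F test and was lower at day +15 (-0.45, 0.0471). The receptor AGER did not pass the F test (adjusted p = 0.119).

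Of 16 other neutrophil genes 3 passed the F test, a share below the 42.3% of all features. MMP9, the gelatinase, was higher at days +30 (1.19), +120 (1.85) and +180 (1.11), with limma adjusted p of 0.0401, 0.00237 and 0.0277. BPI, a granule protein that binds lipopolysaccharide, fell by 1.93 at day +60 (0.0152) and by 2.20 at day +240 (0.0145). ELANE, neutrophil elastase, differed by 1.38 at day +30 (0.0761). The receptor CXCR2, named after its values were seen, was 3.81 higher at day +30 (0.0273). The median difference of the 16 genes at day +30 was 0.19, beside -0.05 over all features, and their mean level ran from -1.80 to -1.53 at day -30 and from -1.60 to -0.07 at day +30. Cathelicidin CATHL5 was higher at days +15 (2.47, 0.0278) and +60 (2.57, 0.0143), the same days as CATHL2. On these days 10.2% and 12.6% of all features were higher. CATHL6, named after its values were seen, was called at neither day (1.52, 0.076, and 1.30, 0.1025).

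**Figure D4:**
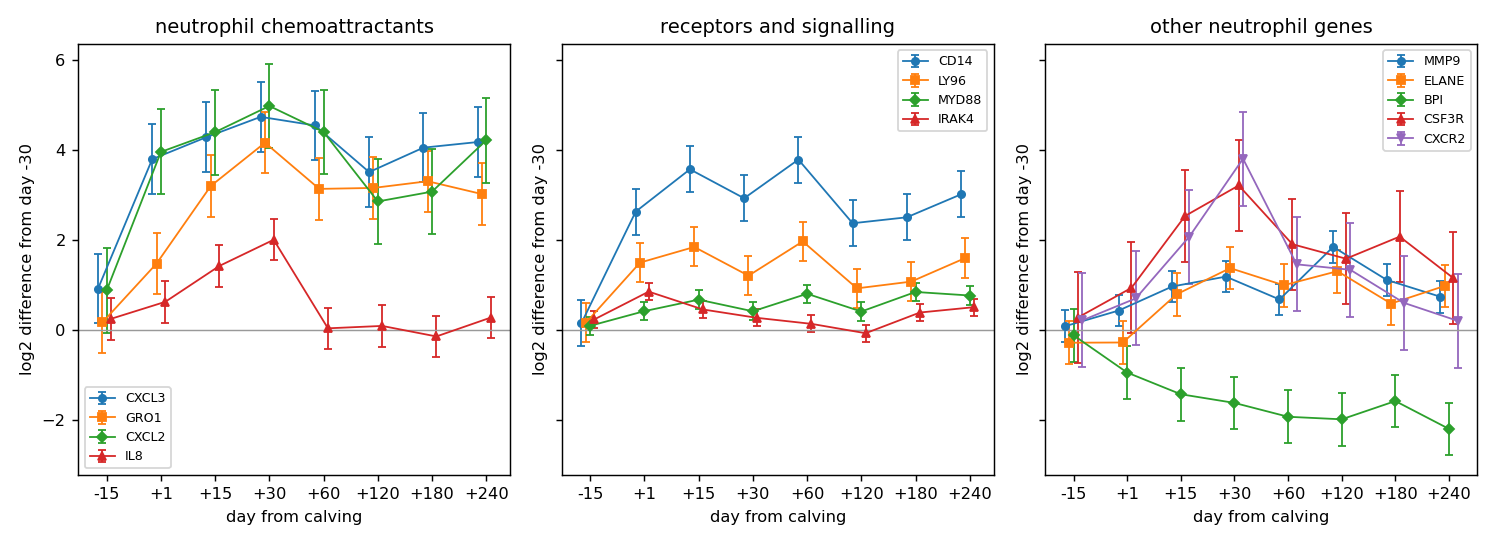
Difference from day -30 (log2, with the standard error as bar) of 4 chemoattractant genes, 4 receptor and signalling genes and 5 other neutrophil genes by day. CXCL3, CXCL2 and GRO1 lie between 2.86 and 4.98 above day -30 from day +15 on, IL8 is above it at days +15 and +30, and BPI lies below 0 after calving.

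Of 14 other S100 genes measured, 5 passed the F test, beside 42.3% of all features. Among them were S100B (1.42 at day +30, limma adjusted p = 0.0457, and 2.26 at day +60, 0.000456), S100A11 (1.00 at day +240, 0.0105), S100A4 (1.57 at day +180, 0.00458) and S100A13 (1.46 at day +180, 0.00665). Of 18 measured antimicrobial genes of epithelium and milk 5 passed, again beside 42.3% of all features. CRISP3 was higher at 6 days (8.29 at day +60, 0.000611) and LPO, lactoperoxidase, at 6 (9.89 at day +60, 0.000717). RNASE4 was higher at days +15, +60 and +240 and DEFB10, a beta-defensin, at day +30 (1.60, 0.0274).

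Markers of other cell types also changed over the days, and their part in these results was not tested. Of 7 macrophage and monocyte markers 1 passed the F test, which 42.3% of all features did. It was MARCO, a scavenger receptor, which was 3.71 higher at day +30 (limma adjusted p = 0.00545). The mean level of the 7 macrophage and monocyte markers ran from -1.002 to -0.69 at day -30 and from -0.29 to 1.45 at day +30. Of 11 T cell and NK cell markers 5 were lower at day +60, where 16.7% of all features were lower, with CD2 down by 1.39 (0.00955), and 1 passed the F test (42.3% of all features). Their mean level was -0.44 to -0.09 at day -30 and -1.23 to -0.91 at day +30. Of 7 markers of squamous and duct lining epithelium 2 passed: DSG3, not well above background on any of the 4 arrays of day +240, and IVL, which fell by 0.56 at day +60 (0.0317). Among the red blood cell markers AHSP and SLC4A1 passed, but SLC4A1 exceeded background clearly on only 1 of the 4 arrays of day +60, where its level was lowest. The 7 measured markers of this list had a mean level of -4.18 to -3.15 at day -30 and -4.66 to -2.66 at day +30. Of the 8 milk protein genes 3 passed, LPO, CSN3 and CSN1S2. CSN3, kappa-casein, was 3.07 higher at day +15 (0.0116), and the mean level of the list ran from 2.37 to 3.80 at day -30 and from 2.99 to 7.14 at day +30.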

How the data were processed

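The members and the gene lists were chosen with earlier results of these data known. The authors scanned 36 single-colour Agilent arrays (Agilent bovine design, V2) with Feature Extraction 10.7.3.1, per the file headers, and deposited spot intensity values with marks for background, saturation and outlying spots. The main values were the log2 levels of the authors' deposited table, made with GeneSpring 12 per the labels. Set against the scanner files, each column was log2 of 1 file's processed signal less its 75th percentile (SD of the difference at most 0.00198, and at least 0.385 for the next best file), so that scale, centring and direction are known. The authors tested the effect of time with JMP Genomics 7, the yak being random, per the labels.

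The table holds 34997 probes. For each gene symbol the probe with the highest mean was kept, with unnamed probes, which left 20110 features (14151 with a symbol, of which 11538 are also in the RefSeq gene table of the yak assembly Bosgru_T2T1.0). The symbols of PGLYRP1, S100A8 and S100A9 are in it, and those of CATHL2, CATHL4 and S100A12 are not. Only names were compared. The matched arrays had a 75th percentile of 1026 to 6457, 68.6% to 89.3% of probes were well above background, 10 to 151 spots were outlying and 0 saturated. The number of arrays, 4 per day, limits the precision.

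The fits used limma 3.58.1 under R 4.3.3 (day fixed, animal by duplicateCorrelation, Benjamini-Hochberg within each comparison). All 36 pairs of days and an F test over the days were computed. The animal numbers pair the samples, since the titles give the same 4 yaks at each day. Once day means were removed, pairs of arrays from 1 animal correlated at 0.156 on average and pairs from different animals at -0.0523, and the consensus correlation was 0.0531. Animals are separate, but days of 1 animal are repeat biopsies.

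Named were the 8 members, from each of 12 lists at most 4 measured genes that passed the F test by lowest adjusted p, and for each member the 3 genes outside the members with the highest Pearson r. Some results of the B cell and red blood cell marker lists are not reported here. The procedure was tested on simulated data for day +30 against day -30 on 20110 features. It recovered 20 of 100 genes changed by log2 1 and 80 of 100 changed by log2 2, with 6 unchanged genes called. The simulated noise was independent, with 1 SD per gene on every day and no animal or slide effect. These counts therefore do not cover the unequal spread between days, or the shared slides, of the measured arrays. Alternatives were normexp background correction (offset 50), quantile normalization, a filter on dim probes, the mean of all probes, other treatments of the animal, array brightness as a covariate, leaving out arrays or animals, fits on the compared days alone, and the record of the scanner files.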

Additional observations from a re-analysis of the deposited data

Results flagged for a closer look

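Each of 54 groups (6 genes on 9 days, 4 animals each) was tested for a sample far from the others, by its gap to the nearest sample over the range of the group. Chance passes Dixon's critical value in about 1 of 20 groups, and 2 groups passed it. At day -30 CATHL4 stood at -4.37 in animal 1, against -5.22 to -5.12 in the other animals. At day +180 S100A8 stood at 0.42 in animal 3, against -1.13 to -0.91 in the others.

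CATHL1 and CATHL3 were read by probes outside the table, and their levels here come from the matched scanner files on the same scale. CATHL1, the gene of a cyclic dodecapeptide in cattle, had 3 probes. They were well above background on 11 (A_73_P063651), 6 (A_73_120669) and 0 of 36 arrays. On A_73_P063651 the highest array was animal 1 at day +15 (-1.58), followed by animal 1 at day +30 (-2.51) and animal 2 at day +30 (-3.32). A_73_120669 had -1.92, -2.83 and -3.66 on the same arrays and was above background on 0 of 4 arrays at day -30. Animal 1 at day +15 was also the highest array of CATHL4. The CATHL3 probe was well above background on 16 of 36 arrays, 4 of 4 at day -30 and 0 of 4 at day +240, with its highest level in animal 1 at day +15 (-4.44). These probes were not tested.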

How the results depend on the processing

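The 20 calls of the 6 genes against day -30 and between successive days were recomputed under 15 alternatives, 300 values in all, of which 242 kept direction and call, 57 lost the call and 1 reversed. The reversed value was PGLYRP1 from day -15 to day +1 in the record of the scanner files (0.0464). That record gave 3 genes past the F test, 11 calls against day -30, 0 between successive days (5 of 48 at an unadjusted p under 0.05, as with the table's record) and 19 over all pairs, beside 5, 19, 1 and 34. Leaving out each animal in turn gave 1 to 5 genes in the F test, 5 to 16 calls against day -30 and 9 to 28 over all pairs, the lowest each time without animal 3, while between successive days it gave 1 each time. Without the 2 arrays lowest in milk protein RNA, and with only the arrays of the compared days, 2 calls were made between successive days, the added one being CATHL2 from day +1 to day +15 (1.73). With no replicate block for the animal the counts were 5, 19, 1 and 31, and with animal as a fixed replicate block 5, 19, 1 and 33, and each of the 20 calls was kept under both. An ordinary linear model with animal as a factor kept 18 and lost S100A8 at days +15 (3.30, adjusted p = 0.0579 over all features) and +180 (3.41, 0.0513). Normexp lost S100A8 at day +180 (3.17, 0.0512), the mean of all probes lost CATHL2 at day +60, and the compared days alone lost S100A8 at day +15 (3.30, 0.05002). Array brightness as a covariate kept 15 of the 20, and lost CATHL2 at days +15 and +60, PGLYRP1 at day +240, and S100A8 and S100A12 at day +15. On these days brightness did not overlap with that of day -30, so that brightness and day are poorly separated. Over all features the F test called 8500, beside 4661 with normexp, 4386 in the scanner record and 2116 without animal 3, and 580, 3892 and 110 against 1282 at day +30. The PGLYRP1 calls at days +15, +30 and +60 were kept under all 15. Each day rests on 4 arrays of 1 slide, and signal over background limits CATHL4 most among the 6 genes.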
